A study of Mus musculus with 8 samples.

Results

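The subject was 10 mouse genes that write, copy, remove or protect DNA methylation, followed across 4 kinds of pluripotent sample: the writers Dnmt1, Dnmt3a, Dnmt3b and Dnmt3l, the erasers Tet1, Tet2 and Tet3, the maintenance factor Uhrf1, and the protectors Dppa3 and Zfp57. They were chosen by symbol from a fixed list, drawn up with earlier results of these data known. The shares over all genes given beside them are therefore a description and no independent test. Each had exactly 1 probe set of its own on the Affymetrix Mouse Gene 2.1 array, so the 10 genes stood among 22180 genes with such a probe set. All 10 also passed the filter on dim signals, which 13597 genes passed. RNA of wild-type C57BL/6J samples in 4 groups was amplified, labelled with biotin and hybridised to 2 arrays per group, 8 in all. FGF-ESC are lines kept in KODMEM medium with 20% KSR, a serum replacement, and FGF2, on a layer of mouse embryonic fibroblasts (MEF). EpiSC, the usual model of the primed epiblast after implantation, had that same medium and feeder layer. ESC, the naive reference, were kept in DMEM with 15% FCS, LIF and 2i (a pair of kinase inhibitors) with no feeders, although their growth protocol names no serum. ICM is the uncultured inner cell mass, taken by immunosurgery from blastocysts at embryonic day 3.5. The labels trace the cultured lines, EpiSC among them, to embryos of day 3.5, and they do not say how many lines, cultures or embryos lie behind the arrays of a group. P-values therefore measure the spread between these arrays, which may be technical. ESC differed from FGF-ESC and EpiSC in medium and feeders at once, and these cannot be told apart from cell state. The 6 comparisons between groups share arrays and are not independent of each other.

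DNA methylation in mammals sits mostly on cytosines followed by guanine (CpG). DNMT3A and DNMT3B place new marks, with DNMT3L, which has no catalytic activity of its own, as a cofactor, and DNMT1, guided to replicated DNA by UHRF1, copies marks onto the new strand. TET enzymes oxidise methylcytosine as a step towards its removal, whereas DPPA3 (Stella) and the zinc finger protein ZFP57 guard methylation at imprinted loci, DPPA3 in the zygote and ZFP57 together with TRIM28. Genome-wide methylation is known to be low in the inner cell mass and in ESC held in 2i, and high in the epiblast after implantation and in EpiSC. Methylation itself was not measured here. All results are transcript signals on a log2 scale, on which a difference of 1 is a doubling.

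The group labels were checked against marker lists. Averaged over 12 naive pluripotency genes, the log2 signal of FGF-ESC (7.16, 7.57) fell between that of ESC (8.07, 8.05) and that of EpiSC (5.06, 5.45), with ICM at 7.10 and 7.13. That of 11 primed genes was 6.16 and 6.43 in EpiSC and between 4.38 and 4.96 on the other 6 arrays. Fibroblast markers stood out in FGF-ESC. Averaged over 21 genes they reached 8.27 on replicate 1 and 7.02 on replicate 2, compared with 4.16 to 4.38 for ESC and ICM and 4.90 to 5.19 for EpiSC. Of these 21 genes, 19 exceeded 4.24, the median of all values, on both FGF-ESC arrays, 15 did in EpiSC, 10 in ICM and 9 in ESC. Dcn and Lum, matrix proteoglycans of fibroblasts, were at 3.23 and 2.97 or lower in ESC and at 9.02 or higher in FGF-ESC. The mean of 10 trophectoderm markers was highest in ICM, at 5.93 and 5.89 against 4.81 to 4.99 on the other 6 arrays. Of these 10 genes, 9 exceeded the median of all values on both ICM arrays, 8 did in FGF-ESC, 6 in ESC and 6 in EpiSC. In bulk samples fewer cells of a type and less RNA per cell cannot be told apart. The part of fibroblast or trophectoderm RNA in the results that follow was not tested.

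Differences were tested with limma in 1 fit over all 8 arrays. A gene was called where its adjusted p was below 0.05 and its log2 difference at least 1. The level of all 10 genes differed somewhere among the 4 groups by the F test, with adjusted p from 9.55e-06 (Dppa3) to 0.0204 (Tet3), where 50.8% of all tested genes did so. The span between the highest and the lowest group mean had a median of 1.66 over the 10 genes and of 0.57 over all genes tested. Of the 10 genes 8 were called in at least 1 of the 6 comparisons, against 25.1% of all genes. The exceptions were Tet3 and Uhrf1.

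**Figure D1:**
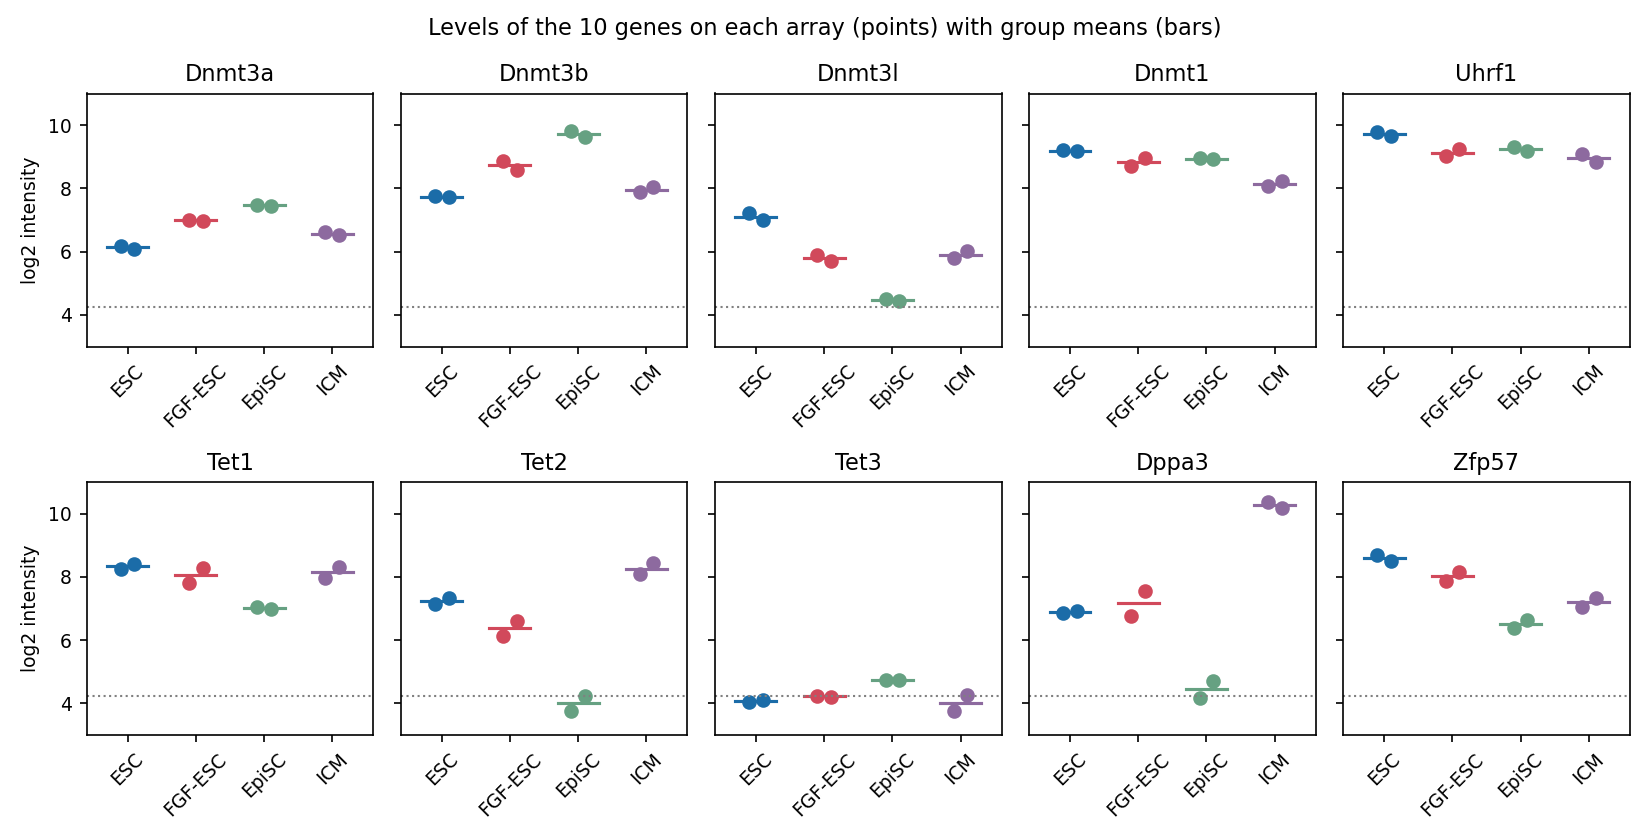
Log2 intensity of each of the 10 genes (panels) on each array, as points, by group on the horizontal axis, with a bar at the mean of the 2 arrays and a dotted line at the median of all values, 4.24. Dnmt3a and Dnmt3b are highest in EpiSC, Dnmt3l and Zfp57 highest in ESC, and Tet2 and Dppa3 highest in ICM and lowest in EpiSC. Levels of different genes come from different probes and are not comparable with each other.

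The de novo writers and their cofactor ran in opposite directions along the cultured groups. Dnmt3b was at 7.76 and 7.71 in ESC, 7.88 and 8.05 in ICM, 8.87 and 8.59 in FGF-ESC and 9.82 and 9.64 in EpiSC. Its groups formed 3 steps, with ESC and ICM low, FGF-ESC in the middle and EpiSC high, and no array of FGF-ESC overlapped another group. Dnmt3b was lower in ESC than in EpiSC by 2.00 ± 0.14 (SE, n = 2 arrays per group, adjusted p = 6.08e-05), a 3.99-fold difference. FGF-ESC stood 0.999 ± 0.141 above ESC (adjusted p = 0.00358) and 0.998 ± 0.141 below EpiSC (adjusted p = 0.00221), just under the fold minimum on either side. Without FGF-ESC replicate 2 the difference from ESC was 1.14 and passed, and without FGF-ESC replicate 1 that from EpiSC was -1.14 and passed. Leaving out ESC replicate 1 (1.02) or EpiSC replicate 2 (-1.09) also made the respective difference pass.

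Dnmt3a, the other catalytic de novo enzyme, was at 6.17 and 6.10 in ESC, 7.01 and 6.98 in FGF-ESC, 6.61 and 6.52 in ICM and 7.48 and 7.44 in EpiSC. The 4 groups did not overlap, and their order was ESC, ICM, FGF-ESC and EpiSC. It was lower in ESC than in EpiSC by 1.33 ± 0.11 (adjusted p = 0.000124). FGF-ESC lay 0.86 ± 0.11 above ESC (adjusted p = 0.0024) and 0.46 ± 0.11 below EpiSC (adjusted p = 0.0219, and 0.0403 to 0.133 with single arrays left out), both short of the fold minimum. EpiSC were above ICM by 0.90 ± 0.11 (adjusted p = 0.000384), also short of it.

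Dnmt3l, the cofactor without catalytic activity, showed the reverse order. It was at 7.22 and 7.00 in ESC, 5.91 and 5.71 in FGF-ESC, 5.80 and 6.02 in ICM and 4.49 and 4.45 in EpiSC. ESC were highest, EpiSC lowest and close to the median of all values, and the FGF-ESC and ICM arrays overlapped between them. The fall from ESC to EpiSC was 2.64 ± 0.14 (adjusted p = 1.92e-05), or 6.24-fold. FGF-ESC were lower than ESC by 1.30 ± 0.14 (adjusted p = 0.00107) and higher than EpiSC by 1.34 ± 0.14 (adjusted p = 0.000531). Between FGF-ESC and ICM the difference was -0.10, with a 95% interval of -0.42 to 0.22, and its sign turned without ICM replicate 2. Dnmt3l was the only one of the 10 genes called in the comparison of FGF-ESC with ESC.

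The maintenance genes varied least among the cultured groups. Dnmt1 was at 9.20 and 9.18 in ESC, 8.70 and 8.95 in FGF-ESC, 8.06 and 8.23 in ICM and 8.95 and 8.92 in EpiSC. The ICM arrays lay below the 6 cultured arrays. ESC exceeded ICM by 1.04 ± 0.13 (adjusted p = 0.000588), and the difference was 0.96 and under the fold minimum without ICM replicate 1. EpiSC and FGF-ESC exceeded ICM by 0.78 ± 0.13 (adjusted p = 0.00188) and 0.67 ± 0.13 (adjusted p = 0.00462). Among the cultured groups no Dnmt1 difference had an adjusted p below 0.05. Between FGF-ESC and EpiSC the difference was -0.11, with a 95% interval of -0.41 to 0.19.

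Uhrf1, which recruits DNMT1 to newly copied DNA, was at 9.77 and 9.66 in ESC, 9.02 and 9.23 in FGF-ESC, 9.10 and 8.83 in ICM and 9.31 and 9.17 in EpiSC. ESC were above all other arrays, while FGF-ESC overlapped both EpiSC and ICM. The ESC level exceeded that of ICM by 0.75 ± 0.14 (adjusted p = 0.00497) and that of FGF-ESC by 0.59 ± 0.14 (adjusted p = 0.0306), and neither reached the fold minimum. The first of these had an adjusted p of 0.0512 without ESC replicate 1. The second lost its adjusted p without FGF-ESC replicate 1 (0.117), ESC replicate 1 (0.195) or ESC replicate 2 (0.126).

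Of the 3 erasers, Tet2 changed most. It was at 7.13 and 7.32 in ESC, 6.15 and 6.61 in FGF-ESC, 8.09 and 8.43 in ICM and 3.77 and 4.23 in EpiSC. The order from ICM through ESC and FGF-ESC to EpiSC had no overlap between groups. ICM exceeded EpiSC by 4.26 ± 0.22 (adjusted p = 3.72e-06), or 19.2-fold, ESC exceeded EpiSC by 3.23 ± 0.22 (adjusted p = 4.66e-05), and FGF-ESC exceeded EpiSC by 2.38 ± 0.22 (adjusted p = 0.000298). Both EpiSC arrays lay below the median of all values. FGF-ESC were lower than ICM by 1.88 ± 0.22 (adjusted p = 0.000319). They were lower than ESC by 0.85 ± 0.22 (adjusted p = 0.035), a difference of 1.08 that passed without FGF-ESC replicate 2 and of 0.61 with an adjusted p of 0.142 without FGF-ESC replicate 1. Without ESC replicate 1 or 2 that adjusted p was 0.14 and 0.199. ESC were lower than ICM by 1.04 ± 0.22 (adjusted p = 0.00738), a call that was lost after quantile normalization (-0.97) and without ESC replicate 1 (-0.94) or ICM replicate 2 (-0.87).

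Tet1, the main TET enzyme of ESC together with Tet2, was at 8.26 and 8.42 in ESC, 7.81 and 8.29 in FGF-ESC, 7.98 and 8.31 in ICM and 7.06 and 6.98 in EpiSC. EpiSC were low and the other 3 groups overlapped. The fall from ESC to EpiSC was 1.32 ± 0.18 (adjusted p = 0.0017). FGF-ESC exceeded EpiSC by 1.03 ± 0.18 (adjusted p = 0.00642), and this call did not hold without FGF-ESC replicate 2 (0.79) or EpiSC replicate 2 (0.99, adjusted p = 0.0515). EpiSC were lower than ICM by 1.12 ± 0.18 (adjusted p = 0.00177), and by 0.96 without ICM replicate 2, where the call was lost. The difference between FGF-ESC and ICM was -0.09, with a 95% interval of -0.52 to 0.33, and changed sign without FGF-ESC replicate 1 or ICM replicate 2.

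Tet3, the TET enzyme of the oocyte and zygote, was dim throughout, at 4.05 and 4.10 in ESC, 4.25 and 4.21 in FGF-ESC, 3.76 and 4.27 in ICM and 4.75 and 4.73 in EpiSC. It exceeded the overall median on 4 of the 8 arrays. EpiSC were above all other arrays, by 0.67 ± 0.16 against ESC (adjusted p = 0.0239) and by 0.72 ± 0.16 against ICM (adjusted p = 0.0089), and no comparison reached the fold minimum. With single arrays left out the adjusted p ranged from 0.112 to 0.146 against ESC and from 0.00181 to 0.0544 against ICM.

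Dppa3 and Zfp57 were both low in EpiSC but differed in where they were high. Dppa3 was at 10.38 and 10.19 in ICM, 6.87 and 6.91 in ESC, 6.78 and 7.54 in FGF-ESC and 4.16 and 4.72 in EpiSC. ICM were far above the rest, ESC fell between the FGF-ESC arrays, and EpiSC were near the median of all values. ICM exceeded EpiSC by 5.84 ± 0.26 (adjusted p = 1.94e-06), or 57.5-fold, and they exceeded ESC by 3.40 ± 0.26 (adjusted p = 4.98e-05) and FGF-ESC by 3.12 ± 0.26 (adjusted p = 6.2e-05). FGF-ESC were above EpiSC by 2.72 ± 0.26 (adjusted p = 0.000362), and ESC were above EpiSC by 2.45 ± 0.26 (adjusted p = 0.000424). FGF-ESC and ESC differed by 0.27, with a 95% interval of -0.33 to 0.87, and the sign turned without FGF-ESC replicate 2 (-0.11).

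Zfp57, which binds methylated imprinting control regions, was at 8.68 and 8.49 in ESC, 7.88 and 8.17 in FGF-ESC, 7.06 and 7.33 in ICM and 6.39 and 6.64 in EpiSC. The 4 groups were separate, in that order. ESC exceeded EpiSC by 2.07 ± 0.16 (adjusted p = 9.65e-05) and ICM by 1.39 ± 0.16 (adjusted p = 0.000451). FGF-ESC exceeded EpiSC by 1.51 ± 0.16 (adjusted p = 0.000645). They lay 0.56 ± 0.16 below ESC (adjusted p = 0.0546) and 0.83 ± 0.16 above ICM (adjusted p = 0.00527), neither of them a call. ICM was above EpiSC by 0.68 ± 0.16 (adjusted p = 0.0122), also under the fold minimum.

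Counted by comparison, ESC and EpiSC differed in most of these genes. Of the 10 genes 5 were higher in ESC (Dnmt3l, Tet1, Tet2, Dppa3 and Zfp57) and 2 were lower (Dnmt3a and Dnmt3b), where 3.5% of all tested genes were higher and 3.86% lower. By adjusted p alone Tet3 joined them, making 8 of 10 against 19% of all genes. These 7 calls were made in each of the 4 fits that left out an array of ESC or EpiSC. The median size of the difference was 1.66 over the 10 genes and 0.21 over all genes.

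FGF-ESC against EpiSC, which shared medium and feeders, gave 5 of 10 higher in FGF-ESC (Dnmt3l, Tet1, Tet2, Dppa3 and Zfp57) and 0 lower, where 5.26% of all tested genes were higher and 2.02% lower. By adjusted p alone 7 of 10 differed, against 19.8% of all genes, with Dnmt3a and Dnmt3b lower in FGF-ESC. In a limma fit of FGF-ESC and EpiSC alone the adjusted p of Dnmt3a was 0.0701. Without FGF-ESC replicate 1, the array with more fibroblast signal, 5 were higher and 1, Dnmt3b, was lower. The counts were 4 higher and 0 lower without FGF-ESC replicate 2, where Tet1 was lost, and 4 higher and 1 lower without EpiSC replicate 2, where Tet1 was lost and Dnmt3b gained. Of 19 fibroblast markers tested, 15 were higher in FGF-ESC in that comparison and 0 lower, with a median of 2.71.

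Against ESC, 0 of the 10 were higher in FGF-ESC and 1 was lower, Dnmt3l, where 5.27% of all tested genes were higher and 0.934% lower. By adjusted p alone 5 of 10 differed, against 15.3% of all genes: Dnmt3a and Dnmt3b were higher, and Dnmt3l, Tet2 and Uhrf1 were lower. In a limma fit of FGF-ESC and ESC alone the adjusted p was 0.067 for Tet2 and 0.0705 for Uhrf1. It stayed below 0.05 there for Dnmt3a, Dnmt3b and Dnmt3l. The call count was 3 without FGF-ESC replicate 2 (Dnmt3b, Dnmt3l and Tet2), 2 without ESC replicate 1 (Dnmt3b and Dnmt3l) and 1 without FGF-ESC replicate 1 or ESC replicate 2. Of the 19 fibroblast markers, 17 were called higher than in ESC and 0 lower, and their median difference was 3.46.

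**Figure D2:**
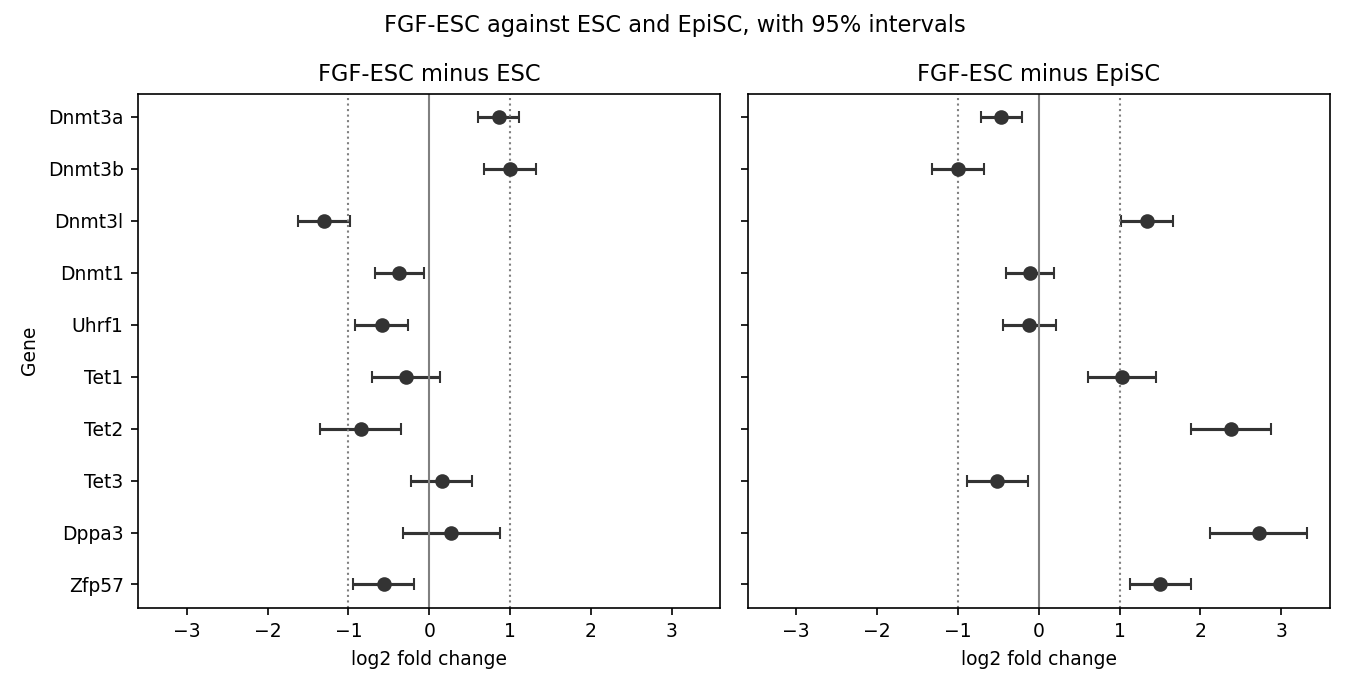
Log2 fold change of each gene (rows) in FGF-ESC minus ESC (left) and FGF-ESC minus EpiSC (right), as points with 95% intervals from the limma fit, with dotted lines at the fold minimum of 1 in either direction. Dnmt3l at -1.30 is the only called difference on the left, and Dppa3 at 2.72 is the largest of the 5 on the right.

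Dppa3 had the largest difference from ICM in each cultured group, and Tet2 the next largest in FGF-ESC and EpiSC, whereas in ESC Tet2 had the smallest of the 5 called differences. FGF-ESC had 0 of 10 genes higher and 2 lower than ICM (Tet2 and Dppa3), where 9.57% of all tested genes were higher and 5.22% lower. By adjusted p alone 6 of 10 differed, against 36.7% of all genes, and the other 4 were Dnmt1, Dnmt3a, Dnmt3b and Zfp57, all higher in FGF-ESC. In a limma fit of FGF-ESC and ICM alone the adjusted p of Dnmt3a was 0.0895. ESC had 3 higher (Dnmt1, Dnmt3l and Zfp57) and 2 lower (Tet2 and Dppa3), where 5.82% and 5.57% of all genes were, and by adjusted p alone 7 of 10 against 33%. EpiSC had 1 higher (Dnmt3b) and 4 lower (Dnmt3l, Tet1, Tet2 and Dppa3), where 8.48% and 6.8% of all genes were, and by adjusted p alone 9 of 10 against 38.4%. Uhrf1 was the gene that did not pass there. Beside these comparisons the median difference of the 9 tested trophectoderm markers from ICM was -1.30 in FGF-ESC, -0.91 in ESC and -0.80 in EpiSC, with 5, 4 and 4 called lower. Primitive endoderm markers averaged 5.92 and 6.02 over 10 genes in ICM, 5.72 and 5.40 in FGF-ESC and 4.90 to 5.03 on the ESC and EpiSC arrays. The median difference of the 9 tested from ICM was -0.30 in FGF-ESC, -0.65 in ESC and -0.96 in EpiSC, with 1, 4 and 4 called lower and 1, 2 and 1 higher, and their part in the results was not tested. Within the primitive endoderm list, Gata6 was at 7.996 and 8.044 in ICM. In FGF-ESC it was at 3.81 and 3.44, below the median of all values. Pdgfra was at 8.06 and 7.82 in ICM and at 8.18 and 6.68 in FGF-ESC. Its higher FGF-ESC value was on replicate 1, the array with more fibroblast signal. The list mean thus does not describe each of its genes. RNA of ICM was extracted with a different column kit from that of the cultured cells, so kit and group cannot be told apart.

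**Figure D3:**
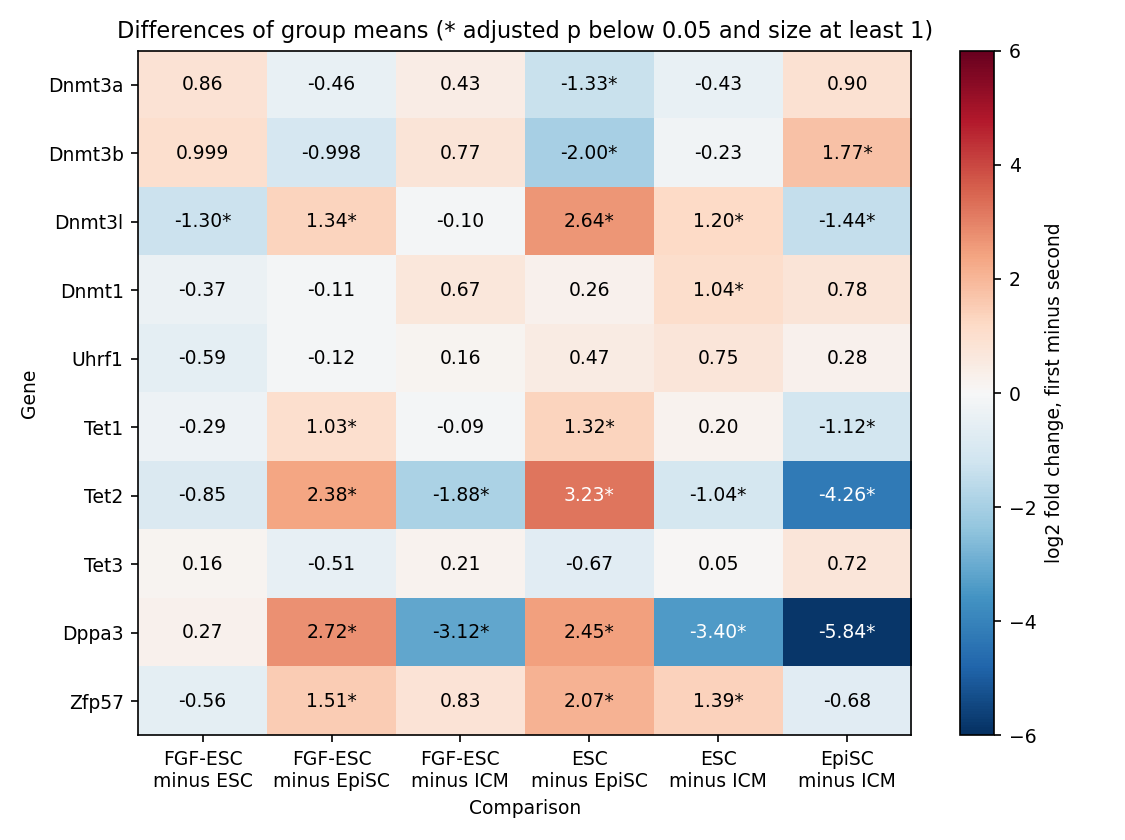
Difference of group means on the log2 scale for each gene (rows) in each of the 6 comparisons (columns), first group minus second, with red for higher and blue for lower in the first and a star where the adjusted p was below 0.05 and the size at least 1. The EpiSC minus ICM column holds the strongest blue, -5.84 for Dppa3 and -4.26 for Tet2. In each of the 6 columns Dnmt3a and Dnmt3b have the sign opposite to Dnmt3l, though not each of these differences was called.

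For the 7 genes called between ESC and EpiSC, the FGF-ESC level was placed on a scale from 0 (the ESC mean) to 1 (the EpiSC mean). On that scale Dnmt3a was nearest to EpiSC, at 0.66 on replicate 1 and 0.64 on replicate 2. Dnmt3b was at 0.57 and 0.43 and Dnmt3l at 0.46 and 0.53, midway between the reference groups. Tet2 was nearer to ESC, at 0.33 and 0.19, as was Zfp57 at 0.34 and 0.20. Tet1 was at 0.40 and 0.04 and Dppa3 at 0.05 and -0.27, so that their arrays differed widely. The median of the 7 was 0.27, and over all 1001 genes called between ESC and EpiSC it was 0.42, with quartiles of 0.17 and 0.69. Those 1001 genes had a median of 0.47 on replicate 1 and 0.32 on replicate 2. The scale shares its reference means with the comparisons above and is given as a description.

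The FGF-ESC arrays differed in the fibroblast signal and in some of these genes, and a single pair of arrays cannot link these differences. Replicate 1, with a fibroblast mean of 8.27 against 7.02, was lower than replicate 2 in Dppa3 by 0.77, in Tet1 by 0.48, in Tet2 by 0.47, in Zfp57 by 0.29, in Dnmt1 by 0.25 and in Uhrf1 by 0.22. It was higher in Dnmt3b by 0.28 and in Dnmt3l by 0.20, while Dnmt3a and Tet3 differed by 0.02 and 0.04. The naive list was lower on that array as well, at 7.16 against 7.57.

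Across the 8 arrays, which form 4 pairs so that a correlation mostly follows the group means, Dnmt3a, Dnmt3b and Tet3 had negative correlations with Dnmt3l, Tet1, Tet2, Dppa3 and Zfp57. Dnmt3a and Dnmt3b had a Pearson r of 0.96, and Tet3 followed Dnmt3b at 0.90. Among the other 5, Tet2 and Dppa3 had 0.93, Dnmt3l and Zfp57 0.90, and Tet1 and Tet2 0.89, but Tet2 and Zfp57 had 0.54, Dnmt3l and Dppa3 0.45, and Dppa3 and Zfp57 0.22. Dnmt3a against Dnmt3l had -0.95 and Dnmt3b against Tet2 -0.93. Dnmt1 and Uhrf1 had 0.79 with each other, and Dnmt1 had -0.75 with Dppa3, further from 0 than the -0.57 of Dnmt3a with Dppa3.

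**Figure D4:**
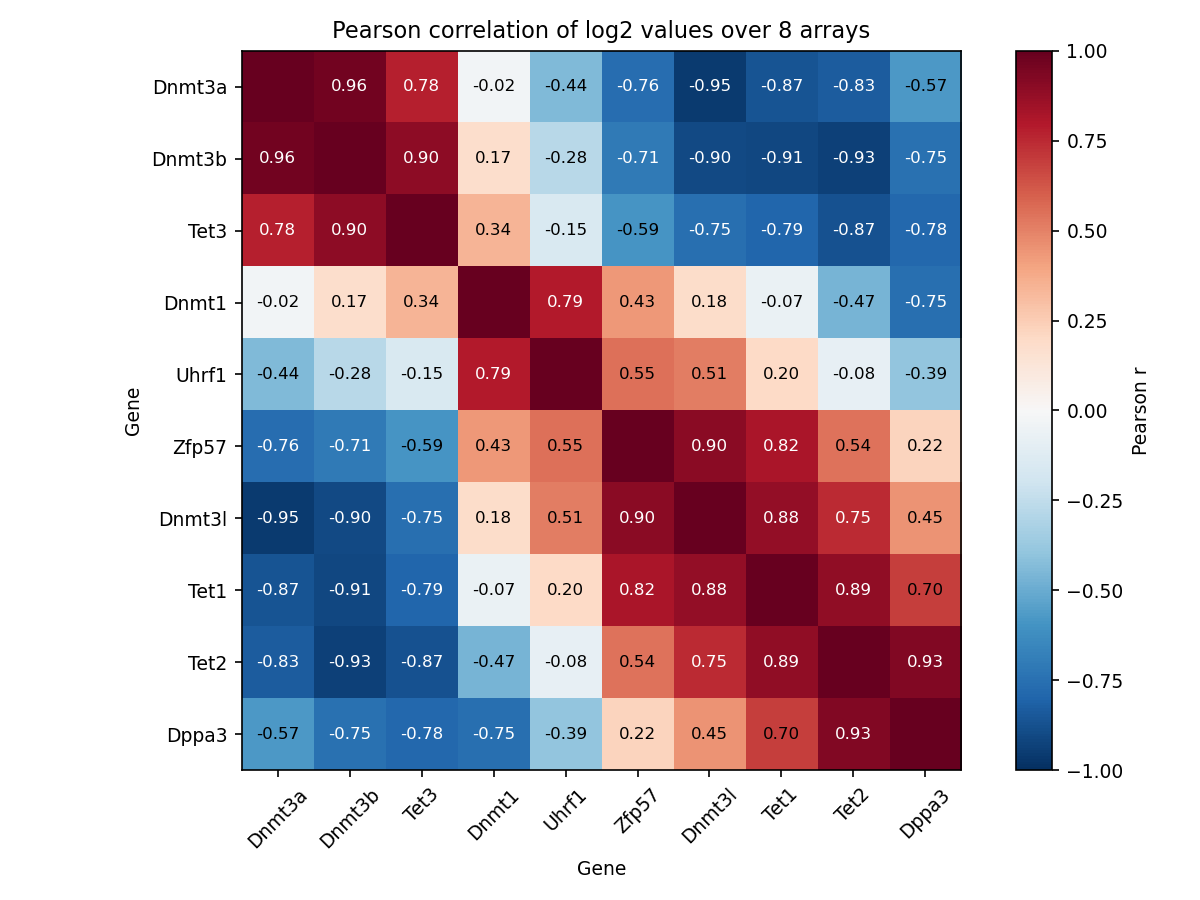
Pearson r of log2 values over the 8 arrays for each pair of the 10 genes, red for positive and blue for negative, with genes on both axes. Dnmt3a, Dnmt3b and Tet3 form a red block at the upper left, with values of 0.78 to 0.96. Values among Zfp57, Dnmt3l, Tet1, Tet2 and Dppa3 at the lower right run from 0.22 (Dppa3 and Zfp57) to 0.93 (Tet2 and Dppa3), and the lowest value, -0.95, is between Dnmt3a and Dnmt3l.

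Outside the 10 genes, the closest pattern to Dnmt3a over the 8 arrays was that of Dusp6, a phosphatase of ERK (r = 0.99), with group means of 7.54 in ESC, 9.12 in FGF-ESC, 9.70 in EpiSC and 8.06 in ICM. Palld and Uhrf2 came next (r = 0.984 and 0.982). Dnmt3b was matched best by Top2b, a DNA topoisomerase gene, Gstk1 and Pea15a (r = 0.992, 0.988 and 0.985), and Dnmt3l by Dlc1, B4galt6 and Gdf3 (r = 0.99, 0.98 and 0.98). Tet2 was closest to Slc44a1, a choline transporter gene, AU018091 and Ap3b1 (r = 0.997, 0.996 and 0.996), and Dppa3 to Gm13212, Depdc7 and Zfp985 (r = 0.998, 0.994 and 0.994). Zfp57 was closest to Pltp, Cox6b2 and Ooep (r = 0.991, 0.989 and 0.988). Dnmt1 was closest to 1700091H14Rik, Ttll9 and the kinesin gene Kif14 (r = 0.990, 0.990 and 0.989), Uhrf1 to Rybp, Magi3 and Plekha8 (r = 0.984, 0.970 and 0.970), Tet1 to Dyrk3, Trap1 and Mybl2 (r = 0.985, 0.981 and 0.978), and Tet3 to Timm29, Pja1 and Tmem17 (r = 0.977, 0.964 and 0.962). For Dppa3 120 genes and for Tet2 108 had r above 0.95, so these few names stand for many.

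The promoters of these genes differed widely in CpG, the sequence that methylation acts on. Of the 10 genes 9 matched the RefSeq promoter table (build GRCm38.p6), with 18 windows of 300 bases, each running from 250 bases before a transcript start to 50 after it. For Dppa3 no window was used here. The window richest in CpG is shown for Dnmt3b, which was high in EpiSC, and for Tet2, Dnmt3l and Zfp57, which were low there. Which transcript start was in use in these samples was not tested. Capitals mark CpG, and each sequence is written 5′ to 3′ on the gene's strand: chr2:153649199-153649498 (plus strand) for Dnmt3b, chr3:133544341-133544640 (minus) for Tet2, chr10:78042037-78042336 (plus) for Dnmt3l and chr17:37002275-37002574 (plus) for Zfp57.
Dnmt3b: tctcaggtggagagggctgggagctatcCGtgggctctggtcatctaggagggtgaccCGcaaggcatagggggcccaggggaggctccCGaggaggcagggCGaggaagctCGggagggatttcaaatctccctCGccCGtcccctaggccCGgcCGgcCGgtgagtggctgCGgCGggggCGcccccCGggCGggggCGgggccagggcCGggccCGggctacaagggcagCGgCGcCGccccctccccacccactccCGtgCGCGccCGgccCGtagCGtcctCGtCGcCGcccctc
Tet2: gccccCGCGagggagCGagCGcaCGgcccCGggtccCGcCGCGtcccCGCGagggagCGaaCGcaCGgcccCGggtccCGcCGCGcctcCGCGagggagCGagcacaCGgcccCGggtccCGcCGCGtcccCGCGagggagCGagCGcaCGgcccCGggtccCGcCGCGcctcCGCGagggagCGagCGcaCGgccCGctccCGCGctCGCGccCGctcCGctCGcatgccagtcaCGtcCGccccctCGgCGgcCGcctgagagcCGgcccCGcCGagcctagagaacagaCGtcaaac
Dnmt3l: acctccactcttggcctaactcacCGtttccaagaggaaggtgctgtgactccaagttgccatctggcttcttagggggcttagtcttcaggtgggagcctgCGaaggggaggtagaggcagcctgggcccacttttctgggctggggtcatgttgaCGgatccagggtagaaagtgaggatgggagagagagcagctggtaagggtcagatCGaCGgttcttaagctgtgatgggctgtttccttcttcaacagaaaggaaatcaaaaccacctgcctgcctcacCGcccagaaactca
Zfp57: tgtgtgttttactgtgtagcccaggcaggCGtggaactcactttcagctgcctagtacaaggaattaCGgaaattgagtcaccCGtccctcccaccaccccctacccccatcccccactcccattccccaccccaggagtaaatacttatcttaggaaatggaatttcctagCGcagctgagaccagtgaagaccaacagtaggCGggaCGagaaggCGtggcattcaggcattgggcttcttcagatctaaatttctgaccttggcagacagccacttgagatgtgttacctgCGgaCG

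Tet2 had 57 CpG in its window, more than 99.8% of the 32851 windows in the table. Dnmt3b had 30 and Dnmt3l 6 at most in any of its 3 windows, while Zfp57 had 9, 6 and 4 in its 3 windows. The median over all windows was 7, with quartiles of 3 and 20. Dnmt3a, the other gene called higher in EpiSC than in ESC, had 47 in its richest window. Tet1 had 17, and Tet3, dim but also highest in EpiSC, had 22. Dnmt1 and Uhrf1 had 33 each in the richest window. A GC box (GGGCGG on either strand, which itself holds a CpG) was found 4 times in the Dnmt3b window, 7 times in the richest Dnmt3a window, 1 time in the windows shown for Tet2 and Dnmt3l and 0 times in any Zfp57 window, and 35.7% of all windows held it. A CCAAT box (CCAAT on either strand) was found 3 times in the richest Dnmt1 window and 2 times in that of Uhrf1, and 37.4% of all windows held at least 1. The windows of 1 gene can overlap, as 2 of Dnmt3a do, and a match describes the letters only.

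**Figure D5:**
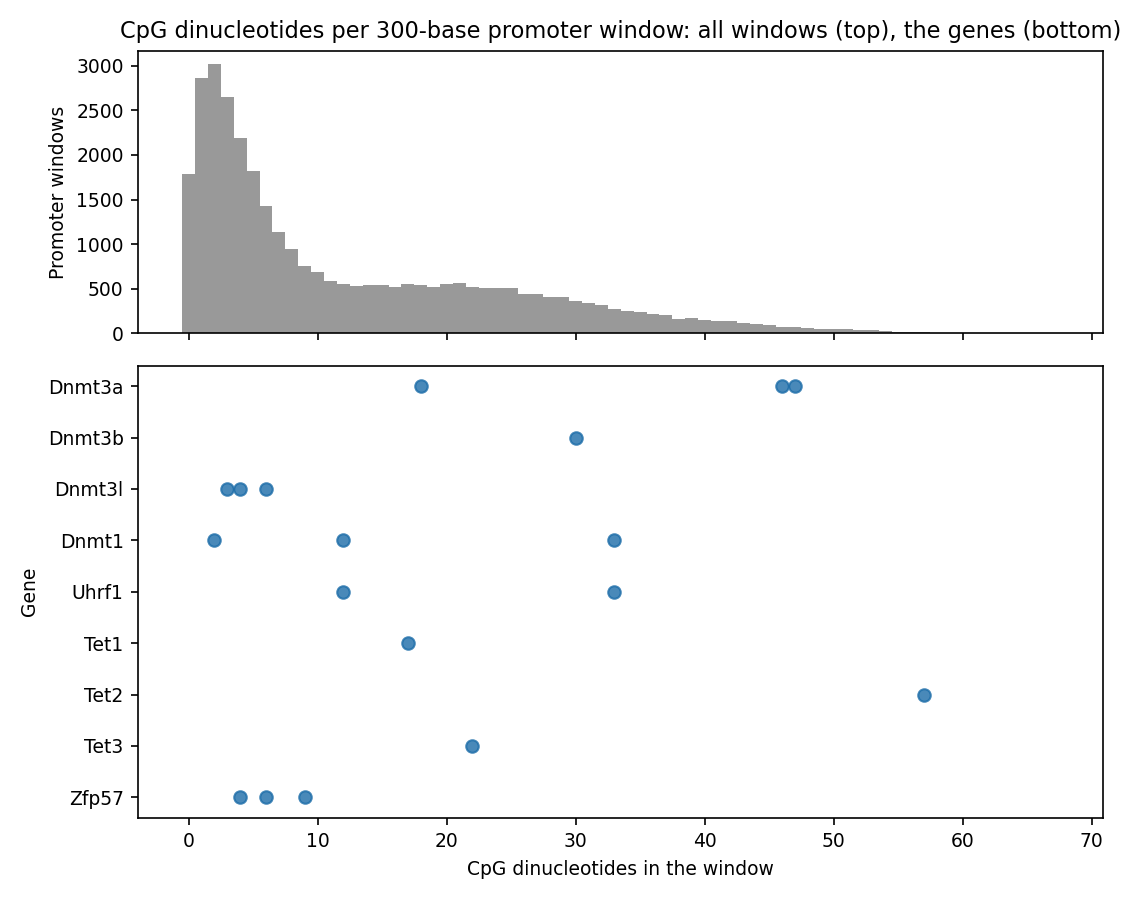
Number of CpG dinucleotides per promoter window of 300 bases on the horizontal axis, as a histogram of all 32851 windows (top) and as points for the 18 windows of 9 genes (bottom, genes on the vertical axis). Dnmt3l and Zfp57 windows hold 3 to 9, whereas the Tet2 window lies at 57 in the upper tail.

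Partners of the pathway were read from 6 further lists, of which 65 genes were tested and 19 called in at least 1 comparison, against 25.1% of all genes tested. Of 10 maintenance cofactors 3 were called: Cdca7l, Uhrf2 and Cdca7. Cdca7l, a relative of the chromatin remodelling partner Cdca7, was at 7.14 and 6.87 in EpiSC and at 3.85 and 4.02 in ICM, a difference of 3.07 ± 0.14 (adjusted p = 2.41e-06), with both ICM arrays below the median of all values. Uhrf2, the paralogue of Uhrf1, was lower in ESC than in EpiSC by 1.78 ± 0.14 (adjusted p = 9.65e-05) and higher in FGF-ESC than in ESC by 1.17 ± 0.14 (adjusted p = 0.00177). It was at 7.04 and 6.83 in FGF-ESC and 5.68 and 5.85 in ESC, and was among the 3 genes most like Dnmt3a (r = 0.98). The remodeller Hells and the replication clamp Pcna were not called anywhere.

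Of 12 imprint and heterochromatin partners 1 was called, Cbx5, which encodes the heterochromatin protein HP1 alpha and was higher in EpiSC than in ICM by 1.08 ± 0.17 (adjusted p = 0.00148). Trim28, the corepressor that ZFP57 recruits, stayed between 9.01 and 9.52 on all 8 arrays, and the histone methyltransferase gene Setdb1 between 7.68 and 8.10. Of 8 methyl-CpG readers 3 were called. Mbd2, which binds methylated CpG, was higher in FGF-ESC than in ESC by 1.01 ± 0.11 (adjusted p = 0.00125), Zbtb38 higher in ESC than in ICM by 1.08 ± 0.13 (adjusted p = 0.000407), and Zbtb4 higher in FGF-ESC than in ICM by 1.11 ± 0.22 (adjusted p = 0.00492). Zbtb4 was at 5.50 and 4.98 in FGF-ESC and at 4.24 and 4.02 in ICM, the latter near the median of all values.

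Of 12 base excision and deamination genes 4 were called. The DNA ligase gene Lig3 was higher in ICM than in the 3 cultured groups, by 1.15 to 1.55. Gadd45b, a stress-induced gene linked to demethylation, was at 7.27 and 7.19 in ESC, 7.85 and 6.93 in FGF-ESC, 4.79 and 5.21 in ICM and 5.20 and 5.84 in EpiSC, and ESC exceeded EpiSC by 1.71 ± 0.31 (adjusted p = 0.00651). The cytidine deaminase gene Apobec1 was higher in FGF-ESC than in ESC by 1.08 ± 0.21 (adjusted p = 0.0122). Gadd45g was the fourth.

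Of 10 regulators of writers and erasers 5 were called. Prdm14, a repressor of the de novo writers in naive cells, was lower in EpiSC than in ESC by 1.67 ± 0.20 (adjusted p = 0.000805) and than in FGF-ESC by 1.40 ± 0.20 (adjusted p = 0.00239), and was at 3.44 and 3.84 in EpiSC, below the median of all values. Prdm14 was also lower in ICM than in ESC, by 1.06 ± 0.20 (adjusted p = 0.00477). Between FGF-ESC and ESC its difference was -0.27 (adjusted p = 0.406). Lin28b and E2f6 were also called, both higher in EpiSC than in ESC and FGF-ESC. The RNA-binding Lin28a was higher in EpiSC than in FGF-ESC by 1.15 ± 0.12 (adjusted p = 0.000611). Cxxc5, a CpG-binding zinc finger gene, was lower in ICM than in each cultured group, by 1.39 to 1.75. Of 13 methyl donor and cofactor genes 3 were called, Shmt2, Idh2 and Mthfd2, each higher in ESC than in ICM. Shmt2, a mitochondrial enzyme of folate-linked carbon supply, was higher by 2.00 ± 0.14 (adjusted p = 3.36e-05), and Idh2, which makes the TET cosubstrate alpha-ketoglutarate, by 1.33 ± 0.18 (adjusted p = 0.00075).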

How the data were processed

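The authors deposited log2 values for 41345 probe sets on each array. Per the submitters' processing notes the tool was Affymetrix Expression Console, version 1.3.1. How probes were summarised and background corrected is not given in the sources used. The log2 scale was read from the range, 1.63 to 12.2. Array medians lay between 4.16 and 4.28, and the values were not normalized again. Genes were named from probe sets with 1 symbol in the platform annotation (23521; 1814 had several and 16010 none). The probe set with the highest mean stood for a gene. Tests were run on genes that exceeded 4.24, the overall median, on 2 or more arrays.

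limma 3.58.1 in R 4.3.3 fitted a means model of the 4 groups to all 8 arrays (4 residual degrees of freedom), with Benjamini-Hochberg adjustment over the 13597 genes of each comparison. SE and 95% intervals come from a spread shared by all groups, and n is 2 arrays per group, which limits the precision. The groups were unequal in spread. Between the 2 arrays of a group 395 tested genes differed by at least 1 in FGF-ESC, 80 in ICM, 20 in EpiSC and 0 in ESC. The shared spread can thus be too small for FGF-ESC and too large for ESC. The code was tested on simulated data. Named genes are the 10 members, up to 3 called genes with the smallest F test p per pathway list, and the 3 genes most correlated with each member. Dcn, Lum, Hells, Pcna, Trim28, Setdb1, Gadd45g, Lin28b, E2f6, Pdgfra and Gata6 were added after their values were seen. Members and lists were chosen with earlier results of these data known. Replicate numbers do not pair the arrays in the labels.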

Additional observations from a re-analysis of the deposited data

How the results depend on the processing

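With 2 arrays per group, every call rests on few values, and signals near the median of all values (Tet3 throughout, Tet2, Dppa3 and Dnmt3l in EpiSC) limit what a fold can show. The numbers of the 10 genes called were close to those reported, within 1.5 times, with the mean of all probe sets, no filter on dim genes, quantile normalization and a fit of the compared groups alone. Without the fold minimum the count was 5 instead of 1 for FGF-ESC with ESC, 6 instead of 2 for FGF-ESC with ICM and 9 instead of 5 for EpiSC with ICM, as that rule has no minimum size. With single arrays left out, the count ranged from 1 to 3 for FGF-ESC with ESC. The genes differing among the 4 groups ranged from 8 to 10 in those fits. Signs turned, among these alternatives, for 6 differences, none of them called. Leaving out single arrays moved Dnmt1 between FGF-ESC and EpiSC from -0.24 to 0.016, Dnmt3l between FGF-ESC and ICM from -0.21 to 0.0094, Dppa3 between FGF-ESC and ESC from -0.11 to 0.65, Tet1 between FGF-ESC and ICM from -0.33 to 0.15, Tet3 between ESC and ICM from -0.20 to 0.31 and Tet3 between FGF-ESC and ICM from -0.043 to 0.46. The cause was not tested. Over these 60 differences and their alternatives, 521 values kept sign and call, 7 lost the call, 5 gained it and 7 turned sign.

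The labels number the arrays 1 and 2 in each group. Deviations of same-numbered arrays correlated across genes at -0.09 to 0.04 between groups. With a single deviation per group, these values cannot show whether same-numbered arrays shared a batch. With the replicate block the count of the 10 genes called was 7 for ESC with EpiSC, 5 for FGF-ESC with EpiSC, 1 for FGF-ESC with ESC, 2 for FGF-ESC with ICM and 5 for ESC or EpiSC with ICM, and no call of the 10 genes changed. Over all genes, 844 were called between FGF-ESC and ESC, 828 with the block, 526 in a fit of those groups alone, and 374 to 1287 with single arrays left out.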
